A study of Mus musculus with 36 samples.

Results

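The hypothalamus of Hcrt knockout mice was compared with that of wild-type mice of the same line. These are 6 of the 36 libraries of the series, 3 labelled Hcrt/Orexin knockout and 3 labelled Hcrt/Orexin wildtype, and they were chosen by their tissue and genotype labels. Both groups carry the strain label C57BL/6, and both are tied by the labels to the published Hcrt knockout line. The labels give no age, nor whether each library came from its own animal, and p-values therefore measure the spread between libraries. In the main fits that spread was estimated from the 12 libraries of a tissue, or from all 36 for differences between regions. The other libraries of the series hold cortex and brainstem of the same genotypes, and all 3 tissues of a second model, the Hcrt/Orexin-ataxin-3 transgenic with its own wild type. In that second model an ataxin-3 transgene under the Hcrt promoter destroys the hypocretin neurons, whereas the knockout lacks a working Hcrt gene.

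Hypocretin, also called orexin, is made from a single precursor that is cut into a pair of peptides. Its neurons lie in the lateral hypothalamus, send axons across the brain to arousal centres such as the histamine, noradrenaline and serotonin nuclei, and act through the receptors Hcrtr1 and Hcrtr2. Loss of this signal causes narcolepsy with cataplexy. The comparison here shows which transcripts differ between knockout and wild-type mice, and the source of a difference was not tested.

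Between 27657570 and 37657710 reads were counted to genes in each of the 6 libraries. Levels are given as CPM, read counts normalised to library size with TMM factors, and differences as log2 fold changes of knockout over wild type with their standard error (SE). Tissue markers matched the labels: 18 hypothalamic transcription factors summed to between 273 and 385 unscaled CPM in the 6 libraries, against 8.08 to 12.4 in the 6 cortex libraries of the same line and 30.6 to 37.5 in the 6 brainstem libraries. The 7 brainstem markers summed to at most 0.451 unscaled CPM in hypothalamus. Some libraries also had high levels of genes that mark neighbouring tissue, and the origin of these transcripts was not tested. Wild-type library 3 had 17400 CPM of Gh, the pituitary growth hormone, and wild-type libraries 1 and 3 had 126 and 93.9 CPM of Slc17a7, the vesicular glutamate transporter of cortical neurons, which was at 0.595 CPM in wild-type library 2 and at 1.09 to 2.61 CPM in the knockout. The biological coefficient of variation across the 12 hypothalamus libraries was 18.0%, against 7.35% in cortex and 9.03% in brainstem.

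Hcrt itself was almost absent from the knockout. It encodes prepro-hypocretin (ENSMUSG00000045471) and its GRCm38 position is chromosome 11, 100761069 to 100762931, minus strand. The knockout libraries held 34, 39 and 34 reads of it, or 1.23, 1.09 and 1.06 CPM. In the wild type the same gene had 3192, 2000 and 2266 reads, or 86.9, 54.1 and 60.1 CPM. The groups were far apart, with 1.13 ± 0.0948 CPM in the knockout and 67.0 ± 17.4 in the wild type (SD, n = 3 each). The knockout mean was 1.68% of the wild-type mean. On the log2 scale the fold change was -5.90 (SE 0.31, edgeR adjusted p = 2.3e-05), and it ran from -6.03 to -5.60 over the alternatives to the analysis. With voom quality weights Hcrt missed the threshold of 0.05 (adjusted p = 0.16) at a log2 fold change of -5.88, and the single call of that fit was Ghdc (0.00597% of the genes tested). Hcrt is the gene that the knockout targets, and it is reported first as a check of the labels. For other genes in whole tissue, fewer cells of a type and less RNA per cell cannot be told apart.

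Upstream sequence of Hcrt and of its neighbour Ghdc, the only genes past the threshold, is shown because the pair lies side by side on the same strand. Each run is the 250 bases before the transcription start in RefSeq (GRCm38.p6), on the minus strand, at chr11:100762932-100763181 for Hcrt and chr11:100770958-100771207 for Ghdc, with the TATA-box letters TATAAA in capitals.
Hcrt: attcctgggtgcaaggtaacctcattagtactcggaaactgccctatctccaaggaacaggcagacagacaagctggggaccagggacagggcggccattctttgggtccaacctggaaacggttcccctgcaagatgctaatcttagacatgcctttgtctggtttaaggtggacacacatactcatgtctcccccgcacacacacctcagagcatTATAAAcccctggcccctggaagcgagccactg
Ghdc: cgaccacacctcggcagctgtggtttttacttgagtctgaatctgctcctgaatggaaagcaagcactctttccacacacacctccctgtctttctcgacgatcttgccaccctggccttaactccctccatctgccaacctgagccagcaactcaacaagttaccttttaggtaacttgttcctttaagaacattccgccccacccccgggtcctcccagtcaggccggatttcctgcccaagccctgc
The Hcrt window held TATAAA once, 33 bases before the start, and the Ghdc window held it on neither strand. Of 32851 windows of this length in the table, 12.4% held these letters on either strand, and of the 66 genes tested within 1 Mb of the Hcrt start 46 had a window and 3 of these held them. A match is a description of the letters only.

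The receptors showed no difference past the threshold. Hcrtr1, the receptor more selective for the longer of the peptides, was at 9.04, 8.96 and 6.07 CPM in the knockout and 6.86, 7.93 and 6.93 CPM in the wild type. Hcrtr2, the receptor whose loss causes canine narcolepsy, was at 15.9, 16.7 and 19.3 CPM against 13.1, 16.7 and 14.4 CPM. The groups overlapped for both receptors, with log2 fold changes of 0.15 (SE 0.17, edgeR adjusted p = 0.84) for Hcrtr1 and 0.23 (SE 0.12, adjusted p = 0.81) for Hcrtr2. Per kilobase of exon Hcrtr1 had 3.08 CPM and Hcrtr2 2.81 CPM in the knockout.

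Transcripts that hypocretin neurons make beside Hcrt were measured at levels that overlapped between the groups. None of the 10 genes of this list passed the threshold, against 0.0119% of all tested genes, and none had non-overlapping groups, against 7.17%. A log2 fold change above 0 was found for 7 of 10, against 53.2% of all tested genes. Their median was 0.09, against 0.01 over all tested genes, and without wild-type library 1 it was -0.02, with 4 of 10 above 0. Pdyn, which encodes the opioid precursor prodynorphin co-released by these cells, was at 108, 102 and 89.9 CPM in the knockout and 79.5, 109 and 78.5 CPM in the wild type. Its log2 fold change was 0.16 (SE 0.13, edgeR adjusted p = 0.81). Qrfp, a neuropeptide gene whose expression partly overlaps that of Hcrt, was at 6.61, 6.99 and 5.64 CPM against 4.95, 6.87 and 4.72 CPM, a log2 fold change of 0.22 (SE 0.20, adjusted p = 0.81). Lhx9, a transcription factor that promotes hypocretin neuron fate, had a log2 fold change of 0.11 (SE 0.34, adjusted p = 0.95). Dlk1, a Notch-family ligand found in these cells, was at 326, 362 and 316 CPM in the knockout and 300, 396 and 443 CPM in the wild type. Of the remaining members, Gal (galanin) had 0.29, Scg2 (secretogranin) 0.07, Slc17a6 (the vesicular glutamate transporter of hypothalamic neurons) 0.07, Ebf2 (a transcription factor) 0.14, Nptx2 (neuronal pentraxin) -0.08 and Igfbp3 (a binding protein of insulin-like growth factors) -0.09 as log2 fold change. The sign of several of these small values changed when a library was left out, and many hypothalamic cells other than hypocretin neurons also express Gal, Pdyn, Scg2 and Slc17a6.

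The neighbouring neurons that make melanin-concentrating hormone gave a similar picture. Their peptide gene Pmch was at 818, 421 and 512 CPM in the knockout and 500, 478 and 432 CPM in the wild type. Knockout library 1 stood above the others and the groups overlapped (log2 fold change 0.31, SE 0.22, edgeR adjusted p = 0.81). All 4 genes of this list had positive values, with a median of 0.20, whereas without knockout library 1 there were 2 positive and 2 negative values and the median was 0.00. Tacr3, the neurokinin B receptor, was the member whose groups did not overlap, at 21.0 to 22.3 CPM against 16.1 to 19.7 CPM, and it did not pass the threshold (0.28, SE 0.10, adjusted p = 0.81).

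Over all genes, few differed past the threshold between knockout and wild type. Of 16738 genes tested, 2 passed the threshold (0.0119%), and both were lower in the knockout: Hcrt and Ghdc. DESeq2 called 10 genes (0.0597%), of which 9 were lower (0.0538%) and 1 higher (0.00597%). An unadjusted edgeR p under 0.05 was found for 651 genes (3.89%), 275 of them higher (1.64%) and 376 lower (2.25%). In 1200 genes (7.17%) the 3 knockout libraries lay wholly above or wholly below the 3 wild-type libraries, 655 above and 545 below.

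Ghdc, a gene named for its GH3 domain that starts 0.008 Mb from the Hcrt start (ENSMUSG00000017747), was at 6.10, 5.54 and 4.95 CPM in the knockout and 9.50, 10.5 and 10.4 CPM in the wild type. The groups did not overlap, and the knockout mean was 54.6% of the wild type (log2 fold change -0.87, SE 0.10, edgeR adjusted p = 0.019). The value ran from -0.95 to -0.80 over 15 alternatives, of which 6 kept the call. The adjusted p was 0.15 without knockout library 2, 0.12 without knockout library 3, 0.06, 0.058 and 0.11 without wild-type library 1, 2 and 3, and 0.88 with only the 6 compared libraries in the fit.

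Kcnh4, on the other side of Hcrt, encodes a voltage-gated potassium channel and starts 0.003 Mb away. It was at 0.327, 1.17 and 0.374 CPM in the knockout and 4.76, 3.63 and 3.82 CPM in the wild type. Its 3 knockout libraries all lay below the wild type at 15.3% of the wild-type mean, yet the gene did not pass the threshold (log2 fold change -2.67, SE 0.88, edgeR adjusted p = 0.81, DESeq2 0.59). Stat5a, which encodes a transcription factor activated by growth hormone, prolactin and cytokine receptors, was at 3.74, 3.98 and 3.58 CPM against 5.77, 7.12 and 7.77 CPM. DESeq2 called it and edgeR did not (log2 fold change -0.87, SE 0.17, adjusted p 0.01 and 0.64). Its paralog Stat5b, transcribed from the opposite strand beside it, had -0.20 (SE 0.08, edgeR adjusted p = 0.81), with 72.0 to 86.7 CPM in the knockout and 88.1 to 94.9 CPM in the wild type. Fkbp10, an endoplasmic reticulum prolyl isomerase that helps fold collagen, was at 7.66, 7.01 and 7.04 CPM against 10.7, 10.9 and 11.3 CPM. Its log2 fold change was -0.60 (SE 0.10, edgeR adjusted p = 0.26, DESeq2 0.00033).

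Tubg1, the gamma-tubulin that nucleates microtubules, was at 60.0, 55.7 and 47.3 CPM in the knockout and 40.8, 44.2 and 42.3 CPM in the wild type. The knockout lay wholly above (log2 fold change 0.36, SE 0.09, edgeR adjusted p = 0.81). Rnd2, a small GTPase of migrating neurons, was at 212, 172 and 155 CPM against 135, 135 and 129 CPM, a log2 fold change of 0.43 (SE 0.11, adjusted p = 0.81). Krt9, a keratin gene, was low in both groups, at 0.965 to 1.27 CPM in the knockout and 1.70 to 3.32 CPM in the wild type (-1.05, SE 0.33, adjusted p = 0.81). These genes lie at -0.57 to 0.702 Mb from the Hcrt start and were, with Hcrt, Ghdc, Kcnh4, Stat5a and Fkbp10, the 8 of smallest p within 1 Mb.

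**Figure D1:**
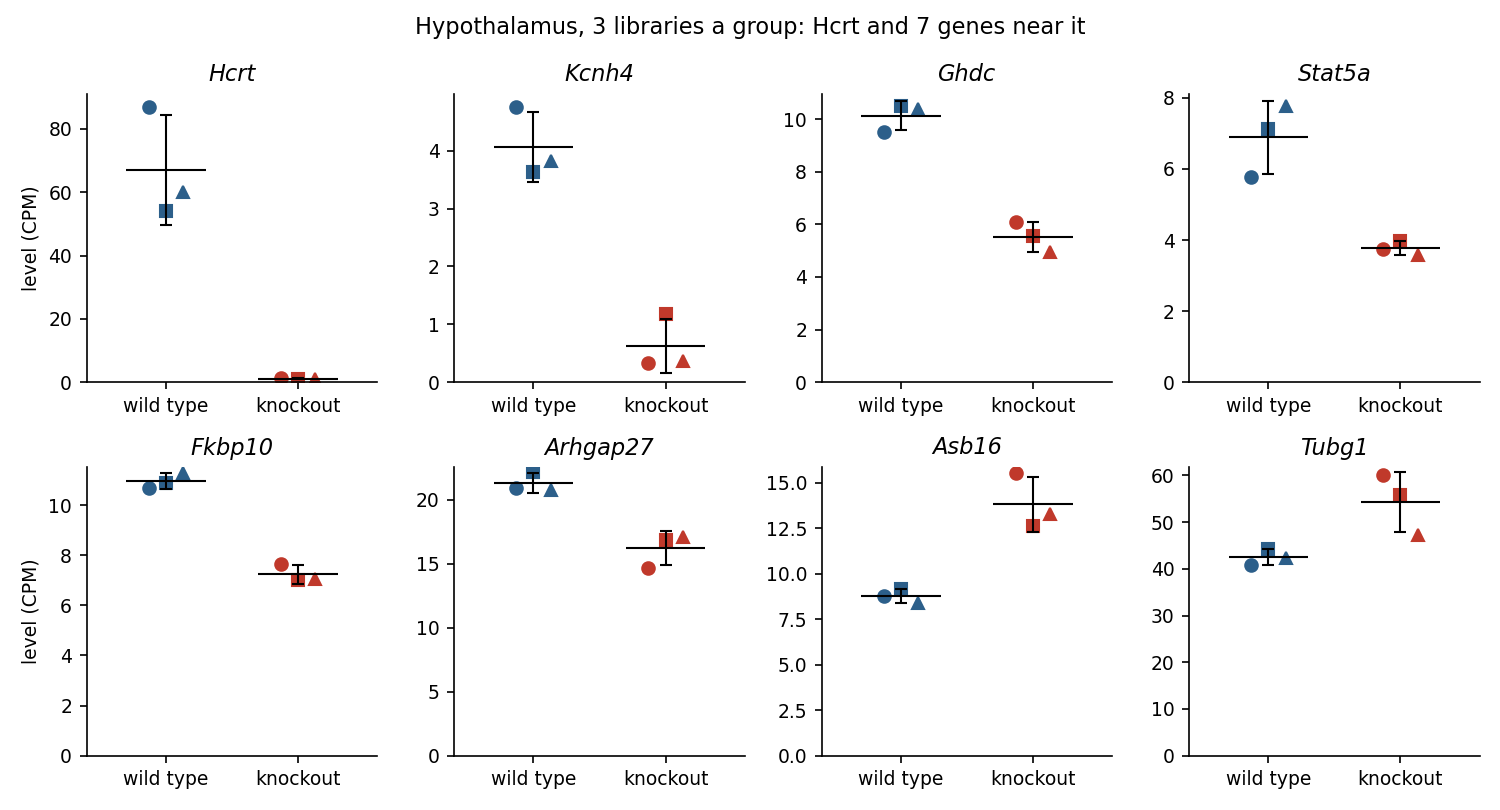
Level in CPM (vertical axis from 0) of Hcrt and 7 genes near it on chromosome 11 in the 3 wild-type and 3 knockout hypothalamus libraries. Points are libraries (circle, square and triangle for replicate 1, 2 and 3), lines are means and bars SD. The groups do not overlap in any of the 8 panels, with 6 genes lower and Asb16 and Tubg1 higher in the knockout. The 7 neighbours were chosen after their values were seen. Of the 224 genes tested within 5 Mb, 15.6% had non-overlapping groups.

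Genes with non-overlapping groups were more frequent close to Hcrt than elsewhere. Of 66 genes tested within 1 Mb of the Hcrt start, 18.2% had groups that did not overlap, 3 higher and 9 lower, and without Hcrt the share was 16.9% of 65 genes. From 1 to 5 Mb the share was 14.6% of 158 genes, from 5 to 10 Mb 6.19% of 97 genes, and from 10 to 20 Mb 6.99% of 286 genes. Beyond 20 Mb on chromosome 11 it was 8.24% of 765 genes, and on the other chromosomes 7.0% of 15366 genes. The median log2 fold change stayed near 0 in each of these bands, from -0.01 to 0.04, with lower and higher genes both present. The difference between bands was not tested, because genes are not replicates. Of the 10 DESeq2 calls, 8 were on chromosome 11 and 7 within 5 Mb of the Hcrt start. These held 1372 and 224 of the 16738 genes tested. Among the 8 was Gh, which was high in wild-type library 3 only.

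**Figure D2:**
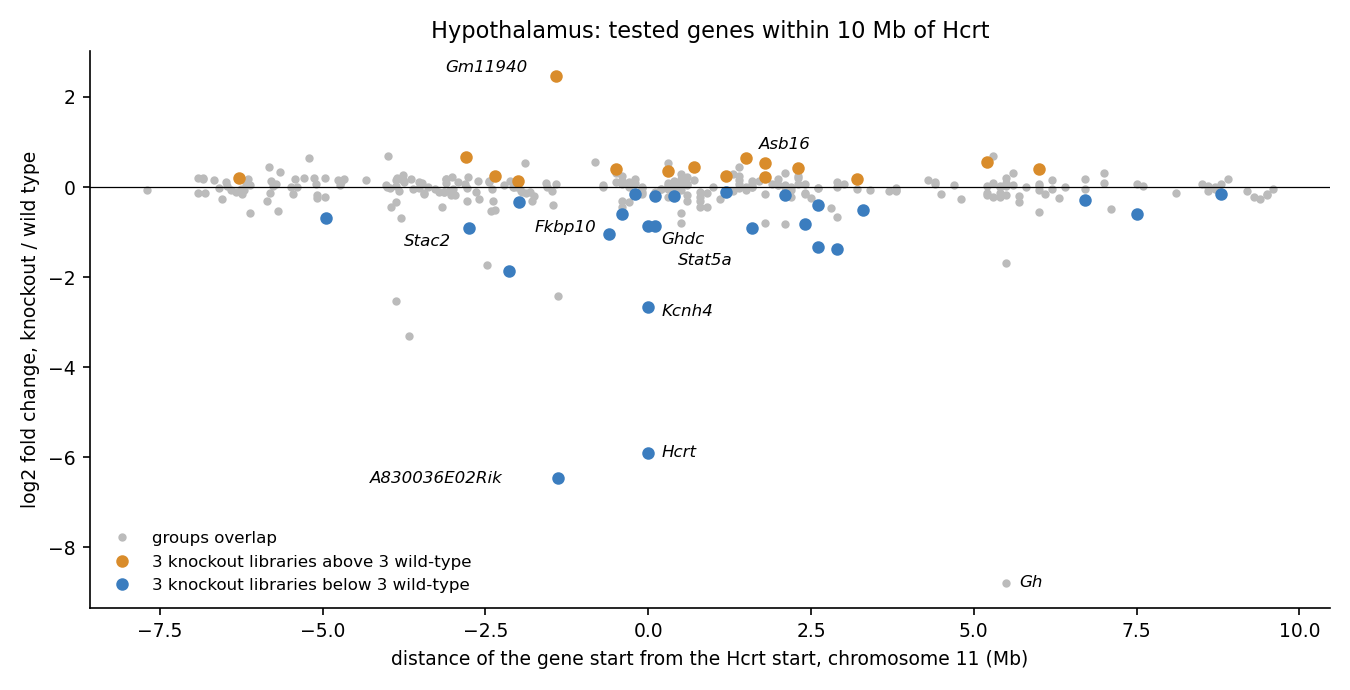
Log2 fold change of knockout over wild type in hypothalamus (vertical axis) against distance of the gene start from the Hcrt start in Mb, for tested genes within 10 Mb on chromosome 11. Blue and orange points have non-overlapping groups, lower and higher in the knockout, and are densest within 5 Mb, where 15.6% of 224 genes were of this kind.

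Farther along the same region the genes of smallest p had values in both directions. Asb16, an ankyrin repeat protein of the SOCS-box family 1.506 Mb from Hcrt, was at 15.5, 12.6 and 13.3 CPM in the knockout and 8.76, 9.15 and 8.36 CPM in the wild type. It was the single higher call of DESeq2 (log2 fold change 0.66, SE 0.11, edgeR adjusted p = 0.31, DESeq2 0.0012). Arhgap27, a GTPase-activating protein, was at 14.7, 16.9 and 17.1 CPM against 20.9, 22.2 and 20.8 CPM (-0.39, SE 0.08, edgeR adjusted p = 0.81, DESeq2 0.034). Acbd4, an acyl-CoA binding protein, was at 32.1, 31.7 and 25.1 CPM against 21.8, 22.8 and 21.5 CPM (0.43, SE 0.10, edgeR adjusted p = 0.81). Stac2, an adaptor of voltage-gated calcium channels, was at 11.9, 16.3 and 15.4 CPM against 37.7, 19.6 and 25.0 CPM, with wild-type library 1 highest (-0.91, SE 0.22, edgeR adjusted p = 0.81). Its value was -0.43 without wild-type libraries 1 and 3, the libraries highest in Slc17a7.

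The antisense transcripts A830036E02Rik and Gm11940, at -1.346 and -1.376 Mb from the Hcrt start, had larger folds at low counts. Gm11940 had 21, 56 and 60 reads in the knockout and 13, 4 and 11 in the wild type, or 2.46 as log2 fold change (SE 0.59, edgeR adjusted p = 0.81). A830036E02Rik had 0, 6 and 4 reads in the knockout and 837, 19 and 185 in the wild type, with the 2 high values in wild-type libraries 1 and 3 (-6.46, SE 1.61, edgeR adjusted p = 0.81, DESeq2 0.0021). Without those libraries the log2 fold change was -2.30. The strand setting of the counting is not given in the sources used here, so reads of these RNAs and of the genes they overlap may be mixed, and the same holds for Stat5a and Stat3, whose ends overlap.

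Outside chromosome 11 the DESeq2 calls were Slc17a7 and Synpo. Both were highest in wild-type libraries 1 and 3, where the summed level of cortex markers was also highest. The value of Slc17a7 was -5.31 (SE 1.55, edgeR adjusted p = 0.81, DESeq2 0.035), and it was 1.63 without those 2 libraries. Synpo, the actin-associated synaptopodin of dendritic spines, was at 32.2, 38.2 and 32.9 CPM in the knockout and 55.0, 40.2 and 58.5 CPM in the wild type. Its value was -0.57 (SE 0.13, edgeR adjusted p = 0.81, DESeq2 0.04) and -0.23 without wild-type libraries 1 and 3. The remaining DESeq2 call was Gh (adjusted p = 0.0498), 5.539 Mb from Hcrt, which was at 17400 CPM in wild-type library 3 and at 4.79 to 19.0 CPM in the other 5 libraries. Its log2 fold change was -8.78 (SE 3.60, edgeR adjusted p = 0.81) and 1.22 without that library.

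Among the genes of smallest p on other parts of the genome, none passed the edgeR threshold and each had an adjusted p of 0.81. Plin4, a lipid droplet coat protein, was at 15.5, 22.3 and 19.96 CPM in the knockout and 11.97, 9.63 and 13.7 CPM in the wild type (log2 fold change 0.71, SE 0.17). Cys1, a protein of primary cilia, had 0.41 (SE 0.11), and Ahsa2, an activator of the chaperone HSP90, had 0.29 (SE 0.08). Prlh, the gene of prolactin-releasing peptide, had 26, 18 and 34 reads in the knockout and 12, 15 and 8 in the wild type (1.39, SE 0.38). Tnmd, or tenomodulin, had 1.03 (SE 0.27) and Cdhr4, a cadherin-related gene, 0.58 (SE 0.16). On the lower side Sstr3, the somatostatin receptor of neuronal cilia, was at 12.1, 11.8 and 10.3 CPM against 15.6, 14.1 and 17.3 CPM (-0.46, SE 0.12). Pcdhb17, a clustered protocadherin with close paralogs that can share reads, had -0.33 (SE 0.08). Trp53cor1, the long noncoding lincRNA-p21, had 12, 16 and 17 reads against 30, 30 and 28 (-0.74, SE 0.21). Gucy2g, a receptor guanylyl cyclase, had -2.34 (SE 0.66) and -0.26 without wild-type libraries 1 and 3.

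The same genotypes in cortex and brainstem were set beside the hypothalamus. For Hcrt the log2 fold change in hypothalamus minus that in cortex was -6.24 (SE 0.88, edgeR adjusted p = 0.0026) and minus that in brainstem -9.81 (SE 0.78, adjusted p = 2.4e-08). In brainstem the knockout libraries held 29, 27 and 42 Hcrt reads and the wild type 5, 0 and 2, so that the knockout was higher there (3.91, SE 0.49, edgeR adjusted p = 0.0017). In cortex there were 17, 10 and 9 reads against 1, 30 and 1, and the groups overlapped (0.33, SE 0.78, adjusted p = 1.0). Without that cortical wild-type library 2 the hypothalamus minus cortex value was -9.53. The mean level in the knockout, 1.13 CPM in hypothalamus, was 1.01 CPM in brainstem and 0.384 CPM in cortex. Hcrt was the single gene past the threshold in each difference between regions, of 17744 genes tested (0.00564%). An unadjusted edgeR p under 0.05 was found for 722 genes (4.07%) for cortex and 998 (5.62%) for brainstem, and DESeq2 called 8 (0.0451%) and 6 (0.0338%). Without wild-type library 2, the wild-type hypothalamus library lowest in Slc17a7, edgeR called 47 and 30 of 17988 genes tested. Of these calls 43 and 29 had a negative difference, and Slc17a7 was among them for both regions.

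Of the 7 genes of smallest p within 1 Mb besides Hcrt, 6 had values of the same sign in the other regions. The exception was Krt9, with -1.05 in hypothalamus, 0.52 in cortex (SE 0.10, edgeR adjusted p = 0.11) and -0.05 in brainstem, and DESeq2 but not edgeR called its difference between hypothalamus and cortex (-1.58, SE 0.32, edgeR adjusted p = 0.12). Ghdc fell in cortex by 1.07 on the log2 scale (SE 0.09, edgeR adjusted p = 5.1e-05) and in brainstem by 0.60 (SE 0.09, adjusted p = 0.0059). Kcnh4, more abundant in cortex, was at 14.0 ± 1.87 CPM in the knockout and 37.1 ± 1.57 CPM in the wild type there (SD, n = 3 each), or -1.40 as log2 fold change (SE 0.08, edgeR adjusted p = 3.2e-07). Fkbp10 fell in brainstem by 0.83 (SE 0.11, adjusted p = 0.0026) and had -0.22 in cortex (SE 0.12, adjusted p = 1.0). Stac2 fell in cortex by 0.47 (adjusted p = 0.001) and in brainstem by 0.61 (adjusted p = 0.0039). Gm11940 rose in both, by 1.70 in cortex (adjusted p = 0.00079) and 3.17 in brainstem (adjusted p = 0.00062). A830036E02Rik was at 1.48 ± 0.0484 CPM in the cortex of the knockout and 111 ± 6.86 CPM in its wild type, a log2 fold change of -6.22 (SE 0.10, adjusted p = 2.9e-15). Asb16 had 0.72 in cortex (adjusted p = 0.11) and 0.49 in brainstem (adjusted p = 0.081), and Stat5a had -0.73 (adjusted p = 1.0) and -0.65 (adjusted p = 0.057).

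Counted over regions, 13 genes passed the threshold in cortex (0.0789%), 12 of them on chromosome 11, and 12 passed in brainstem (0.0728%), 11 of them on chromosome 11. In hypothalamus that chromosome held 1372 of the 16738 genes tested. Of the 12 cortical calls that were tested in hypothalamus, 10 had the same sign there, 6 had non-overlapping groups and 1 was called. Of the 12 brainstem calls, 10 had the same sign in hypothalamus, 6 had non-overlapping groups and 2 were called. Over all genes tested in hypothalamus, 7.17% had non-overlapping groups and 0.0119% were called. Hcrt had the opposite sign between brainstem and hypothalamus. A difference between hypothalamus and another region was not past the threshold for Ghdc (0.19, SE 0.12, edgeR adjusted p = 0.93 against cortex and -0.28, SE 0.11, adjusted p = 0.80 against brainstem), which does not show that the regions act alike.

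**Figure D3:**
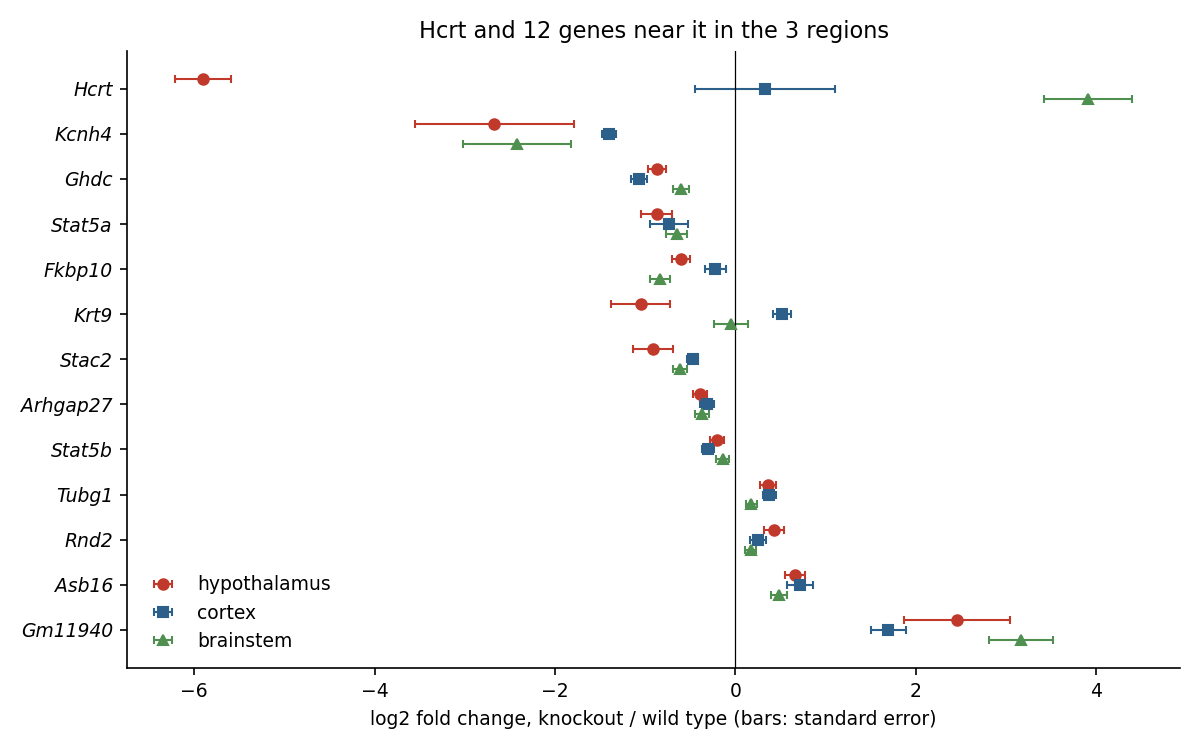
Log2 fold change of knockout over wild type with its standard error (horizontal axis) for Hcrt and 12 genes near it, in hypothalamus, cortex and brainstem. The 12 neighbours were chosen after their values were seen; each but Krt9, with a positive value in cortex, had the same sign in the 3 regions, from Kcnh4 at -2.67 in hypothalamus to Gm11940 at 2.46, while Hcrt was lower in hypothalamus and higher in brainstem.

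Genes of growth hormone and STAT5 signalling were described because Stat5a and Stat5b lie beside Hcrt. Of 12 members tested, 10 had a negative log2 fold change, against 46.8% of all tested genes, and their median was -0.22. None passed the edgeR threshold, and 3 had non-overlapping groups with the knockout lower, against 3.26% of all genes. The member of these beside Stat5a and Stat5b was Cish, a SOCS-family inhibitor induced by STAT5, at 6.32, 7.35 and 6.82 CPM in the knockout and 8.79, 8.12 and 9.34 CPM in the wild type (-0.36, SE 0.12, edgeR adjusted p = 0.81). Igf1, the growth factor that growth hormone induces, was at 5.56, 5.20 and 7.75 CPM against 15.2, 5.17 and 8.70 CPM, with wild-type library 1 highest (-0.65, SE 0.32, adjusted p = 0.81, and 0.25 without wild-type libraries 1 and 3). Without wild-type library 3, which held 17400 CPM of Gh, 11 of the 12 members had negative values and the median was -0.21. Without knockout library 1 these were 9 of 12 and -0.10.

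Red blood cell transcripts were lower in every knockout library than in every wild-type library. All 6 members tested had non-overlapping groups with the knockout lower, against 3.26% of all genes, and their median log2 fold change was -0.62, with none past the threshold. Alas2, the haem synthesis enzyme of erythroid cells, was at 9.30, 8.46 and 9.56 CPM in the knockout and 16.0, 15.4 and 12.6 CPM in the wild type (-0.69, SE 0.23, edgeR adjusted p = 0.81). Hbb-bs, an adult beta globin, was at 163, 126 and 131 CPM against 224, 201 and 176 CPM (-0.52, SE 0.25, adjusted p = 0.81). Hbb-bt, the other adult beta globin, had -0.67 (SE 0.24), and the alpha globin Hba-a2 -0.57 (SE 0.28). Globin genes have near-identical copies that can share reads, so their single levels are uncertain. The 7 genes of the list summed to 248 to 305 CPM in the knockout and 345 to 421 CPM in the wild type, and to 208 to 458 CPM in the 6 hypothalamus libraries of the ataxin-3 line, a range that covers both groups. The amount of blood left in each dissected piece was not measured, and its part in these values was not tested. The median stayed between -0.71 and -0.49 in the 15 alternatives.

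Immediate-early genes, which neurons switch on within minutes of activity, had negative values in 23 of 26 members, against 46.8% of all tested genes. The list median was -0.33. No member had non-overlapping groups, against 7.17% of all tested genes, and none passed the threshold, against 0.0119%. Their summed level was 503, 515 and 486 CPM in the knockout and 712, 487 and 626 CPM in the wild type, so that wild-type libraries 1 and 3 were high and library 2 lay within the knockout range. Arc, the synaptic plasticity gene, was at 11.5, 16.2 and 14.0 CPM in the knockout and 48.8, 15.1 and 21.0 CPM in the wild type (log2 fold change -1.02, SE 0.36, edgeR adjusted p = 0.81). The zinc finger factor Egr1 was at 35.8, 42.0 and 30.0 CPM against 111, 31.6 and 60.0 CPM (-0.91, SE 0.37, adjusted p = 0.81). Egr2 had -1.29 (SE 0.47), Egr3 -1.39 (SE 0.55), Fosb -0.62 (SE 0.27) and Fos, a marker of recent firing, -0.37 (SE 0.24). Without wild-type libraries 1 and 3, 18 of the 26 members had positive values and the median was 0.08, and without wild-type library 2 alone it was -0.52.

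The summed level of cortex markers was also highest in wild-type libraries 1 and 3. Of 14 such genes 13 had negative values, against 46.8% of all tested genes, with a median of -0.32. Their summed level was 588 to 728 CPM in the knockout and 922, 716 and 1040 CPM in the wild type. Camk2a, a kinase of excitatory synapses, was at 375, 527 and 432 CPM against 573, 507 and 682 CPM (-0.40, SE 0.13, edgeR adjusted p = 0.81). Neurod2, a transcription factor of cortical excitatory neurons, was at 0.726, 0.501 and 1.18 CPM against 0.789, 1.24 and 5.92 CPM. Wild-type library 1 was thus not high for this marker. Without wild-type libraries 1 and 3 the cortex list split into 7 positive and 7 negative values with a median of 0.00. Because the summed cortex markers and immediate-early genes were high in the same libraries, their parts cannot be told apart here.

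All 8 pituitary genes tested had negative values, against 46.8% of all tested genes, with a median of -5.56. None had groups apart, against 7.17% of all tested genes. Without wild-type library 3 all 8 had positive values, with a median of 1.31. Their summed level was 13.5 to 66.3 CPM in the knockout, 15.95 CPM in wild-type library 1, 9.525 CPM in library 2 and 20600 CPM in library 3. Prl, the prolactin gene, was at 19.4, 1.14 and 2.99 CPM in the knockout and 0.653, 0.46 and 2630 CPM in the wild type. Nasal epithelium genes, 5 in number, summed to at most 46.8 CPM.

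**Figure D4:**
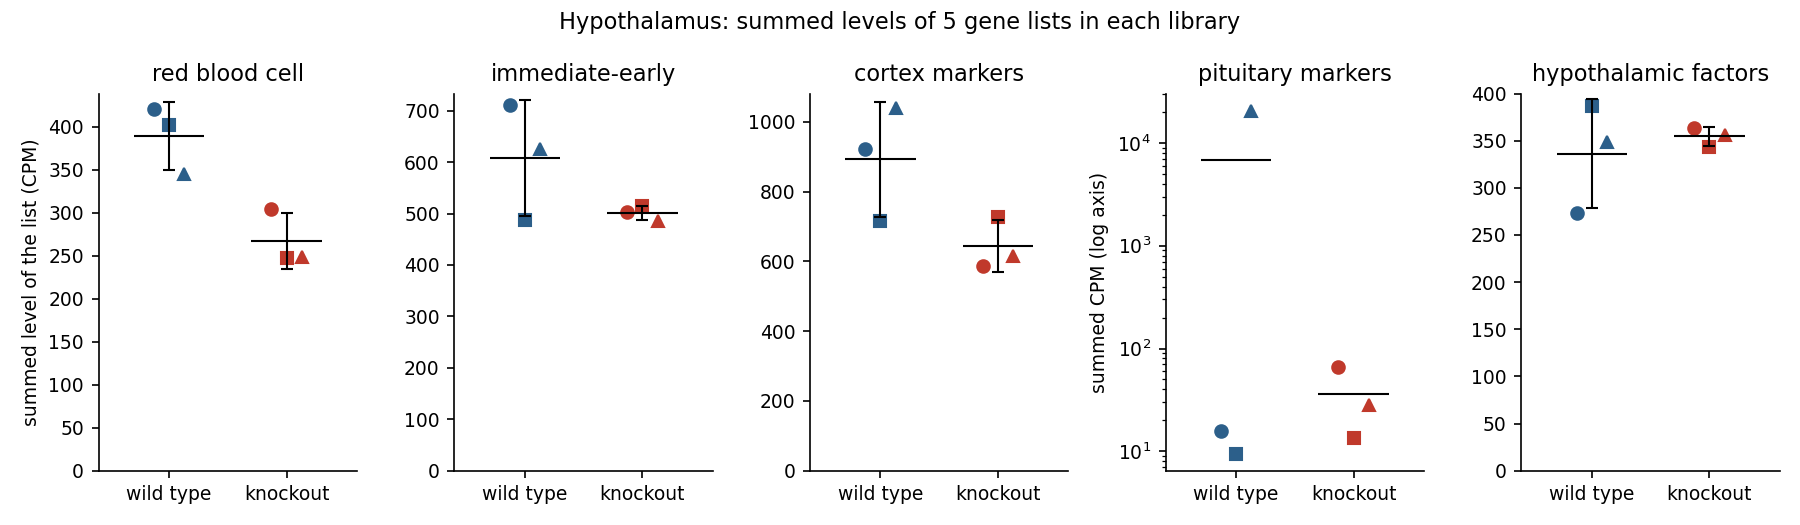
Summed CPM of 5 gene lists in the 3 wild-type and 3 knockout hypothalamus libraries (circle, square and triangle for replicate 1, 2 and 3); lines are means, bars SD, and the pituitary panel has a log axis with no SD. Red blood cell genes separate the groups, immediate-early and cortex genes are high in wild-type libraries 1 and 3, and pituitary genes reach 20600 CPM in wild-type library 3.

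Other hypothalamic peptide systems had mostly small positive values that did not pass the threshold. Of 9 neurosecretory genes 8 had positive values, with a median of 0.17, and without wild-type libraries 1 and 3 these were 4 of 9 and -0.03. Avp, the vasopressin gene, was at 333, 288 and 207 CPM in the knockout and 195, 290 and 218 CPM in the wild type (log2 fold change 0.24, SE 0.28, edgeR adjusted p = 0.85). Oxt, the oxytocin gene, was at 246, 171 and 111 CPM against 163, 137 and 115 CPM (0.35, SE 0.29, adjusted p = 0.81). Trh, which encodes thyrotropin-releasing hormone, had 0.24 (SE 0.16) and Gnrh1, which encodes gonadotropin-releasing hormone, 0.44 (SE 0.32). Of 12 arcuate feeding genes 7 had positive values, with a median of 0.04, and of 10 suprachiasmatic genes 6 did, with a median of 0.07. Without wild-type libraries 1 and 3 both medians were negative, at -0.19 and -0.05.

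Arousal systems that hypocretin axons reach were represented by the histamine neurons, whose cell bodies lie in the hypothalamus. Of 7 histamine genes 6 had positive values, against 53.2% of all tested genes, with a median of 0.15. None passed the threshold, against 0.0119% of all tested genes, and none had groups apart, against 7.17%. Without wild-type libraries 1 and 3 the positive values were 3 of 7 and the median was -0.02. Hdc, the enzyme that makes histamine, was at 78.5, 80.8 and 77.9 CPM in the knockout and 55.7, 87.5 and 66.7 CPM in the wild type (log2 fold change 0.18, SE 0.17, edgeR adjusted p = 0.82). The knockout values lay inside the wild-type range. Slc18a2, the vesicular monoamine transporter, had 0.31 (SE 0.22), and Hrh1, the histamine receptor blocked by sedating antihistamines, 0.18 (SE 0.11). Among 8 catecholamine and serotonin genes tested, 6 had positive values, with a median of 0.18. The knockout lay wholly above in 2 of the 8, against 3.91% of all tested genes. Ddc, the decarboxylase of dopamine and serotonin synthesis, overlapped between the groups, at 83.5, 69.7 and 86.4 CPM against 56.0, 72.0 and 55.5 CPM (0.38, SE 0.13, edgeR adjusted p = 0.81). Tph2, the serotonin synthesis enzyme, lay above by a narrow margin in CPM and at low counts. It had 24, 30 and 20 reads against 22, 15 and 23 and a value of 0.52 (SE 0.27). Slc6a3, the dopamine transporter, was at 64.8 CPM in knockout library 3 and at 7.78 to 13.5 CPM in the other 5 libraries (1.47, SE 0.92). Th, the rate-limiting enzyme of dopamine synthesis, had -0.07 (SE 0.25).

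Clock genes were balanced, with 8 of 17 above 0 and a median of 0.00. Bhlhe41, also known as Dec2 and tied to short sleep in humans, was at 85.2, 80.2 and 81.3 CPM in the knockout and 71.2, 74.7 and 71.1 CPM in the wild type, without overlap (log2 fold change 0.19, SE 0.08, edgeR adjusted p = 0.81). Ciart, a circadian repressor, was at 10.8 to 11.1 CPM against 9.53 to 10.3 CPM (0.17, SE 0.11), also without overlap. Bhlhe40, the relative of Bhlhe41, had -0.10 (SE 0.06). The core activators Arntl and Clock had 0.04 (SE 0.08) and -0.24 (SE 0.20).

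Hypothalamic transcription factors had positive values in 13 of 18 members, with a median of 0.08 and 3 wholly above the wild type, against 3.91% of all tested genes. Without wild-type library 1 the positive values were 8 of 18 and the median was -0.02. Isl1, which specifies arcuate neurons, was at 37.9, 33.3 and 33.1 CPM in the knockout and 25.9, 32.9 and 28.3 CPM in the wild type (log2 fold change 0.26, SE 0.09, edgeR adjusted p = 0.81). Hmx2 had 0.32 (SE 0.17) and Nkx2-2 0.25 (SE 0.13).

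Chaperone genes had mostly small positive values. Of 18 endoplasmic reticulum stress genes 17 had positive values, with a median of 0.07, but without knockout library 1 these were 9 of 18 and 0.00, and with voom quality weights 10 of 18 and 0.01. Of 12 heat shock genes 11 had positive values, with a median of 0.14 and, without knockout library 1, of 0.05. The knockout lay wholly above the wild type in 2 of these 12, against 3.91% of all tested genes. None passed the threshold. Hspa5, the endoplasmic reticulum chaperone BiP, was at 633, 495 and 520 CPM in the knockout and 466, 475 and 534 CPM in the wild type (log2 fold change 0.16, SE 0.11, edgeR adjusted p = 0.81). Xbp1, a transcription factor of the unfolded protein response, had 0.14 (SE 0.09). Hspa8, the constitutive cytosolic HSP70, was at 1570, 1380 and 1350 CPM against 1310, 1310 and 1280 CPM, without overlap (0.14, SE 0.07, adjusted p = 0.81). Its partner Dnaja1 had 0.18 (SE 0.09) and the mitochondrial chaperonin Hspe1 0.27 (SE 0.14). Knockout library 1 had the highest level for each of these genes.

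No gene of the glial and vascular lists passed the threshold. Of 12 oligodendrocyte genes 11 had positive values, against 53.2% of all tested genes, with a median of 0.13 and no groups apart. Without wild-type libraries 1 and 3 these were 6 of 12 and 0.03. Mog and Aspa, myelin genes, had 0.28 (SE 0.15) and 0.27 (SE 0.14), Cldn11 had 0.18 (SE 0.13), and Mbp, myelin basic protein, had 0.09 (SE 0.10). Among 10 astrocyte genes the median was 0.04, and 2 had non-overlapping groups, 1 in each direction, against 7.17% of all tested genes. Agt, which encodes angiotensinogen, was at 349, 303 and 280 CPM in the knockout and 228, 263 and 231 CPM in the wild type (0.37, SE 0.10, edgeR adjusted p = 0.81), and Gfap, 2.138 Mb from Hcrt, was at 282, 233 and 275 CPM against 305, 286 and 296 CPM (-0.17, SE 0.14). Slc1a2, the glial glutamate transporter, had -0.24 (SE 0.13). Medians were 0.02 for microglia, -0.01 for vascular cells, 0.01 for oligodendrocyte precursors and -0.11 for meningeal fibroblasts. No member of these 4 lists had groups apart, against 7.17% of all tested genes.

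**Figure D5:**
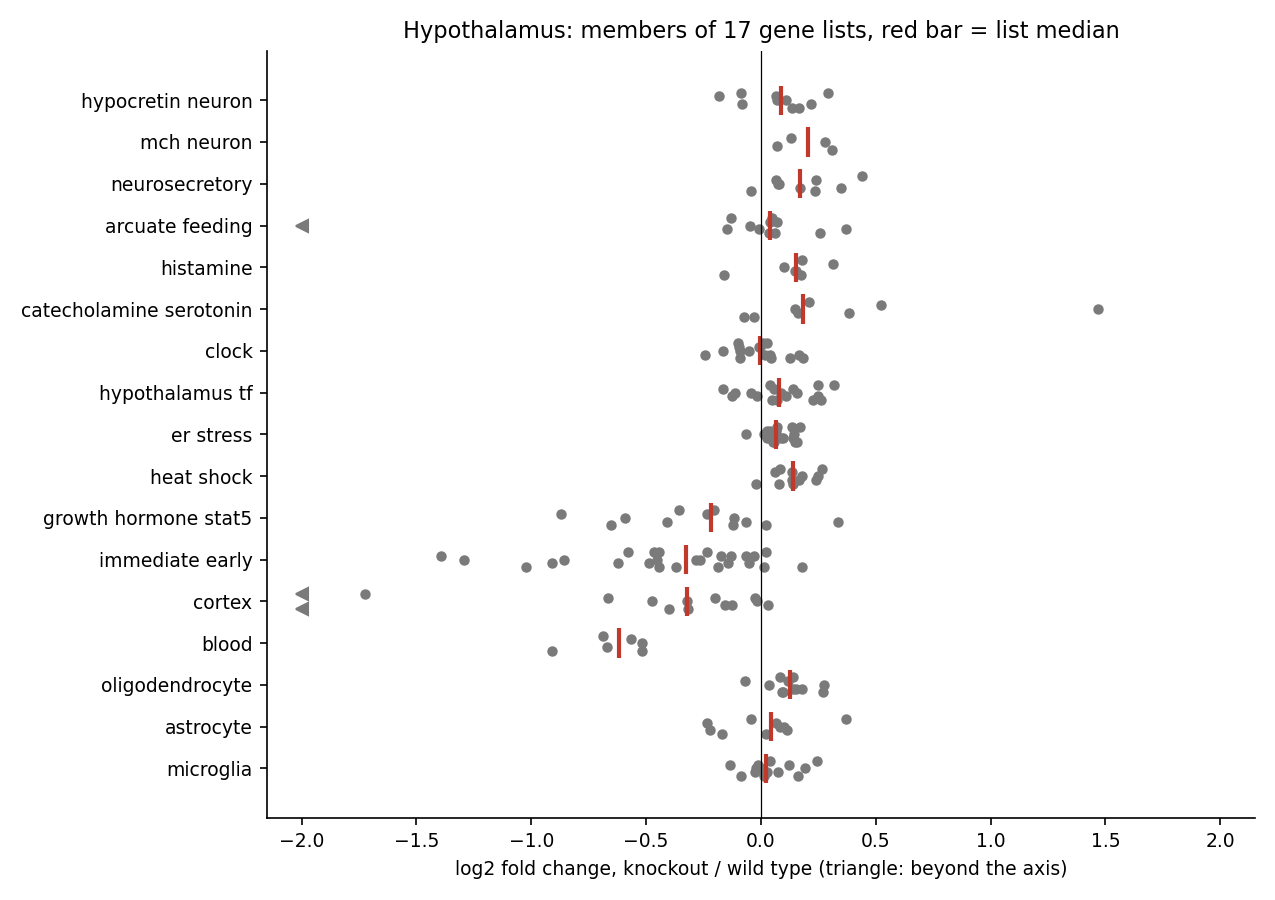
Log2 fold change of knockout over wild type in hypothalamus (horizontal axis, limited to 2 either way, triangles beyond) for the tested members of 17 gene lists, 1 point a gene, with the list median as a red bar. Medians lie between -0.62 for blood and 0.20 for genes of neurons that make melanin-concentrating hormone.

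Values in the ataxin-3 model, where the hypocretin neurons are destroyed, are set beside those of the knockout. The models have wild types of their own and share no library. In the ataxin-3 line wild-type libraries 1 and 3 held 23500 and 12250 unscaled CPM of Gh, and transgenic library 1 held 667 unscaled CPM of Omp, a marker of olfactory neurons. Hcrt itself had -6.12 (SE 0.30, edgeR adjusted p = 9.5e-06) in the transgenic hypothalamus, and the difference between the models was 0.22 (SE 0.41, adjusted p = 0.98). Qrfp had 0.22 in the knockout and -1.18 (SE 0.21) in the transgenic. That difference of 1.39 (SE 0.29, unadjusted p = 0.00038) did not pass the threshold over all genes (edgeR adjusted p = 0.98, DESeq2 0.092). Scg2 had 0.07 and -0.38, a difference of 0.45 (SE 0.18, adjusted p = 0.98). Of 16738 genes, edgeR called none for this difference, with 378 (2.26%) at an unadjusted p under 0.05, and DESeq2 called 3 (0.0179%): Ghdc, Fkbp10 and Mirg, the last a noncoding RNA named after its values were seen. Ghdc had -0.87 in the knockout and 0.04 in the transgenic (difference -0.91, SE 0.15, edgeR adjusted p = 0.36, DESeq2 0.00022), and Fkbp10 had -0.60 and 0.27 (difference -0.87, SE 0.14, adjusted p = 0.36, DESeq2 0.00022). Without these libraries and wild-type library 3 of the knockout line, which left 1 wild-type library of the ataxin-3 line, the difference between the models was -0.57 for Hcrt, 1.74 (SE 0.32) for Qrfp, 0.25 (SE 0.18) for Scg2, -0.80 (SE 0.23) for Ghdc and -0.84 (SE 0.20) for Fkbp10. Each of these had an edgeR adjusted p of 1.0.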

How the data were processed

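Libraries were made from 500 ng of total RNA with a stranded poly(A) kit, per the labels' protocols. The authors deposited raw counts per Ensembl gene, 1 table per library. The tools named, per the submitters' processing notes, are cutadapt 1.2.1, TopHat2 2.0.9 and HTSeq 0.5.4p3, with the build GRCm38. The sources used here do not give the strand setting, overlap mode or annotation release. The 5 lines for unassigned reads, 24.7% to 27.4% of a library's total in the 6 libraries compared, were left out. GENCODE M21 named 37607 of 38924 genes.

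Genes were tested with edgeR 4.0.16 in R 4.3.3 (TMM, default expression filter by group, robust quasi-likelihood fit of the 12 hypothalamus libraries; 36 libraries for differences between regions), with Benjamini-Hochberg adjustment over all tested genes and a threshold of 0.05. Each adjusted p is from this test unless another tool is named. SE was |log2 fold change| divided by the root of the F statistic. Alternatives were DESeq2 1.42.0, voom quality weights (limma 3.58.1), other factors and filters, fewer libraries and a replicate block. The scripts were tested on simulated data.

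The 31 gene lists, the comparison and the naming rule were chosen with earlier results of these data known. Named were Hcrt, Hcrtr1, Hcrtr2, Qrfp, Pmch, hypocretin neuron genes, edgeR and DESeq2 calls, up to 12 genes of smallest p per direction with non-overlapping groups, 8 within 1 Mb of Hcrt, and the leading 2 and up to 4 members of smallest p of lists discussed. Some genes that the rule names are not reported here. Predicted genes were named only if called or among the 3 smallest p in a direction. Upstream sequences are from RefSeq (GRCm38.p6).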

Additional observations from a re-analysis of the deposited data

Results flagged for a closer look

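Hcrt differed between regions by a test of the difference itself. The log2 fold change of knockout over wild type in hypothalamus minus that in cortex was -6.24 (SE 0.88, edgeR adjusted p = 0.0026), and -9.53 without cortical wild-type library 2, which held 30 Hcrt reads against 1 in each of the other cortical wild-type libraries. The difference from brainstem was -9.81 (SE 0.78, edgeR adjusted p = 2.4e-08), with all 3 hypothalamic knockout libraries below their wild type and all 3 brainstem knockout libraries above theirs.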

How the results depend on the processing

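Over 15 alternatives, of which the omission of wild-type libraries 1 and 3 was chosen after seeing the data, Hcrt kept a log2 fold change of -6.03 to -5.60 and passed the threshold except with voom quality weights (-5.88). The number of genes called was 2 in the main analysis, 10 with DESeq2, and 1 with only the 6 compared libraries, with voom quality weights (Ghdc, not Hcrt), without libraries holding pituitary or nasal transcripts, and without wild-type libraries 1 and 3, where 1 wild-type library was left and was assumed to vary like the other groups. Leaving out each library gave 1 to 5 calls, with 5 without wild-type library 2 (Hcrt, Mef2c, Mybpc1, Kcnv1 and Synpo, the last 4 lower in the knockout and not past the threshold otherwise in edgeR). Replicate numbers did not pair the samples (correlations of same-numbered libraries -0.0613, 0.112 and 0.0396); with the replicate block there was 1 call, with 1 call for the difference from cortex and 2 from brainstem. For the difference from cortex DESeq2 called 8 genes, voom quality weights 4 and leave-one-out fits 1 to 47, against 1; from brainstem DESeq2 called 6 and leave-one-out fits 1 to 30, against 1; between the models DESeq2 called 3, against 0. Hcrt between the models was -0.57 without libraries holding pituitary or nasal transcripts. The cause of these changes was not tested.

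Of 89 named genes, 65 kept their sign in each alternative run and 24 did not; the reversed log2 fold changes, none past the threshold, follow. Without wild-type libraries 1 and 3 these were Qrfp -0.11, Igfbp3 0.21, Pdyn -0.14, Slc17a6 -0.13, Ebf2 -0.13, Cartpt -0.26, Egr1 0.18, Egr3 0.19, Fos 0.20, Fosb 0.22, Slc17a7 1.63, Gh 1.45, Prl 4.02, Igf1 0.25, Hdc -0.16, Avp -0.08, Slc18a2 -0.02 and Arntl -0.09. With voom quality weights they were Lhx9 -0.10, Cartpt -0.01 and Th 0.17. Without libraries with pituitary or nasal transcripts they were Igfbp3 0.17, Cartpt -0.06, Gh 1.22 and Prl 3.76. Leaving out 1 library at a time gave ranges that crossed 0 for Scg2 -0.01 to 0.14, Lhx9 -0.14 to 0.34, Igfbp3 -0.22 to 0.17, Slc17a6 -0.05 to 0.18, Ebf2 -0.05 to 0.28, Pmch -0.02 to 0.50, Cartpt -0.13 to 0.26, Gh -9.36 to 1.22, Prl -8.75 to 3.74, Th -0.31 to 0.22, Arntl -0.01 to 0.10, Clock -0.42 to 0.01 and Slc6a3 -0.25 to 1.91. The brainstem marker list had no gene left under the stricter CPM filter and no value there. A count of 0 allows up to 3 reads, or 0.0797 to 0.109 CPM in these libraries, and this limit covers counting error only.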
